A study of Rattus norvegicus with 47 samples.

Results

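Calmodulin and calcium handling genes were represented here by 4 rat genes, Calm2, Atp2b1, Cacna1h and Camk1g, chosen by gene symbol. Each had 1 probe, so they make up 4 of the 20500 probes, and 4 of the 9644 named genes, measured on every array. Calcium enters cells through channels such as the T-type channel whose pore subunit Cacna1h encodes, and it is removed by pumps such as the plasma membrane calcium ATPase encoded by Atp2b1. Inside the cell, calmodulin binds calcium and then binds and activates other proteins, among them the plasma membrane pumps and the calmodulin-dependent kinases, of which Camk1g encodes CaM kinase I gamma. Calm2 encodes calmodulin, which is abundant in germ cells of the testis.

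RNA from a piece of the right testis of each of 47 male Sprague-Dawley rats, 90 days old, was hybridised to an Agilent 2-colour oligonucleotide array, and the second dye carried a universal rat reference RNA. Each rat had received a single intraperitoneal injection of 650 mg/kg methoxyacetic acid (MAA), a metabolite of a glycol ether solvent that is toxic to spermatocytes, or of saline. They were killed at 4, 8, 12 or 24 h. The MAA groups held 6 animals at each time, and the concurrent saline groups held 5 animals at 4 h and 6 at 8, 12 and 24 h. The tissue is a mixture of all testis cells, so fewer cells of a type and less RNA per cell cannot be told apart.

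The level given is log2(testis/reference) after loess normalization within each array. Testis is the channel headed Cy3 in the files, whereas the sample labels give Cy5 to testis. Under the labels' dyes every ratio and every change of a ratio would have the opposite sign, and the values of the testis channel alone would belong to the reference RNA. The 14 elongating spermatid markers measured had a median log2(Cy3/Cy5) of 0.84 above the array median, and that median was above 0 on 47 of 47 arrays. For the 6 spermatocyte markers it was 0.59, above 0 on 46 arrays. Array brightness varied, with testis channel medians of 431 to 1749 units and 43.5% to 97.2% of probes above background. The array of MAA_4h animal 3 was treated as unlike the others of its group. Its Calm2 ratio was the lowest there (-1.57, next -1.02), though not flagged as an outlier. The file of MAA_12h animal 27 repeats the Cy5 column of MAA_8h animal 15. Changes are differences of MAA minus saline from limma, fitted over 47 arrays with hybridisation date as a term, and a probe was called at an adjusted p under 0.05 over 20500 probes. Precision is limited by the number of arrays, and over all probes the standard error of a change had a median of 0.186 at 12 h.

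The probes differed in how well they were measured. The Calm2 probe (probe 7714, Gene ID 50663) was above background on 47 of 47 arrays, with a median testis brightness of 25306 units. Its brightness reached the scanner's limit in the testis channel on 2 arrays and in the reference channel on 12. The Atp2b1 probe (probe 12505, Gene ID 29598) was above background on 39 arrays and had a median of 938.5 units. The probes of Cacna1h (probe 16462, Gene ID 114862) and Camk1g (probe 13515, Gene ID 171358) were each above background on 19 of 47 arrays, with medians of 622 and 687 units. Their values are therefore near the floor of the assay on the other 28 arrays.

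No start-site window was available for Calm2 or Cacna1h. The start-site regions of Atp2b1 and Camk1g are given because they were available, and they were not picked by their calls. RefSeq's rat assembly GRCr8 gave 250 bases before and 50 after the annotated start for these 2 of the 4 members. The windows are chr7:35622211-35622510 on the plus strand for Atp2b1 and chr13:107430181-107430480 on the minus strand for Camk1g. Capitals mark the motifs found on either strand.
Atp2b1: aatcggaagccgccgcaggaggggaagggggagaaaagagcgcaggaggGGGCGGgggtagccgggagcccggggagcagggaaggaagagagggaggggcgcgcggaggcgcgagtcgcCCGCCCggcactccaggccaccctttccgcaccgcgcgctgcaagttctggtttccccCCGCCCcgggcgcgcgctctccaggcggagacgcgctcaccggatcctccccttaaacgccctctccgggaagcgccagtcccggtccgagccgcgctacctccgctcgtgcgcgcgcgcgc
Camk1g: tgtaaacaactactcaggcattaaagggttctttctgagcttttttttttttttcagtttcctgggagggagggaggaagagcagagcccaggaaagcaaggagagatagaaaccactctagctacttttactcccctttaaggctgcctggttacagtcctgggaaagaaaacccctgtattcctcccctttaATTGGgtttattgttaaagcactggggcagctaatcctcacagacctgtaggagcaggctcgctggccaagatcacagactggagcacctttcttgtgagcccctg
The Atp2b1 window was 74.3% G or C and held 3 GC boxes (GGGCGG, or CCGCCC on the other strand), a motif that 33.1% of 33469 rat promoter windows hold. The Camk1g window was 47.7% G or C and held 1 CCAAT box (read as ATTGG on the other strand), present in 37.5% of windows. Neither window held TATAAA (14.2% of windows) or the cAMP response element TGACGTCA (1.8%), searched on both strands. These matches describe the letters and are not evidence of binding.

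Calmodulin RNA was lower 12 h after MAA. The Calm2 ratio stood between -1.77 (lowest) and -1.27 (highest) in MAA animals, with a median of -1.53, against -0.93 to -0.50 in saline animals, with a median of -0.80. Every MAA animal lay below every saline animal. The means were -1.50 ± 0.18 after MAA and -0.77 ± 0.14 after saline (SD, n = 6 each). The fitted change was -0.71 ± 0.12 (SE), which is 1.64-fold lower, with a 95% interval of -0.96 to -0.46 and an adjusted p of 0.000865 (limma). By p-value it ranked 32nd of 20500 probes at that time.

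Of all probes, 520 (2.54%) were called at 12 h, 347 higher and 173 lower, and 619 (3.02%) had groups that did not overlap. Of the 4 members, Calm2 and Atp2b1 were called, and Calm2 was the one without overlap. At an unadjusted p under 0.05 there were 3011 of 20500 probes, with Calm2, Atp2b1 and Cacna1h among them. The testis channel taken alone gave the same picture for Calm2, without its reference channel. On that scale, log2 brightness after quantile normalization, MAA animals ran from 13.70 to 14.53 and saline animals from 14.62 to 15.06, with no overlap. The change was -0.70 (adjusted p 0.0011, limma). The Calm2 reference channel had a difference of 0.11 between the same groups (adjusted p 0.912, limma), but it was at the scanner's limit on 3 MAA and 3 saline arrays and could show little change there.

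Saturation touched the Calm2 ratio at 12 h. On those 6 arrays the ratio is an upper limit, while the testis channel was below the limit on all 12 arrays. Over the arrays with neither channel at the limit, the Calm2 mean was -1.52 after MAA and -0.85 after saline, 3 arrays each. The MAA arrays among these include that of animal 27 (-1.77), which carries the copied reference channel and stays in the fit that follows. Fitted without every array on which the Calm2 spot was saturated, the change was -0.52 (adjusted p 0.801, limma), and in that fit 0 of 20500 probes were called at 12 h. Within the 2 hybridisation dates that held both groups, the differences were -0.79 (2 MAA and 2 saline arrays) and -0.77 (1 and 2 arrays). Both rest on saturated arrays. The reference was at the limit for MAA animal 28 and both saline animals of the first date, and for the only MAA animal of the second. Without the saturated arrays no date held both groups at 12 h. Calm2 was called at 12 h in 47 of 47 fits that each left out 1 array, with changes from -0.76 to -0.66. Without both MAA_4h animal 3 and MAA_12h animal 27 it was -0.71 (adjusted p 0.00121, limma).

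**Figure D1:**
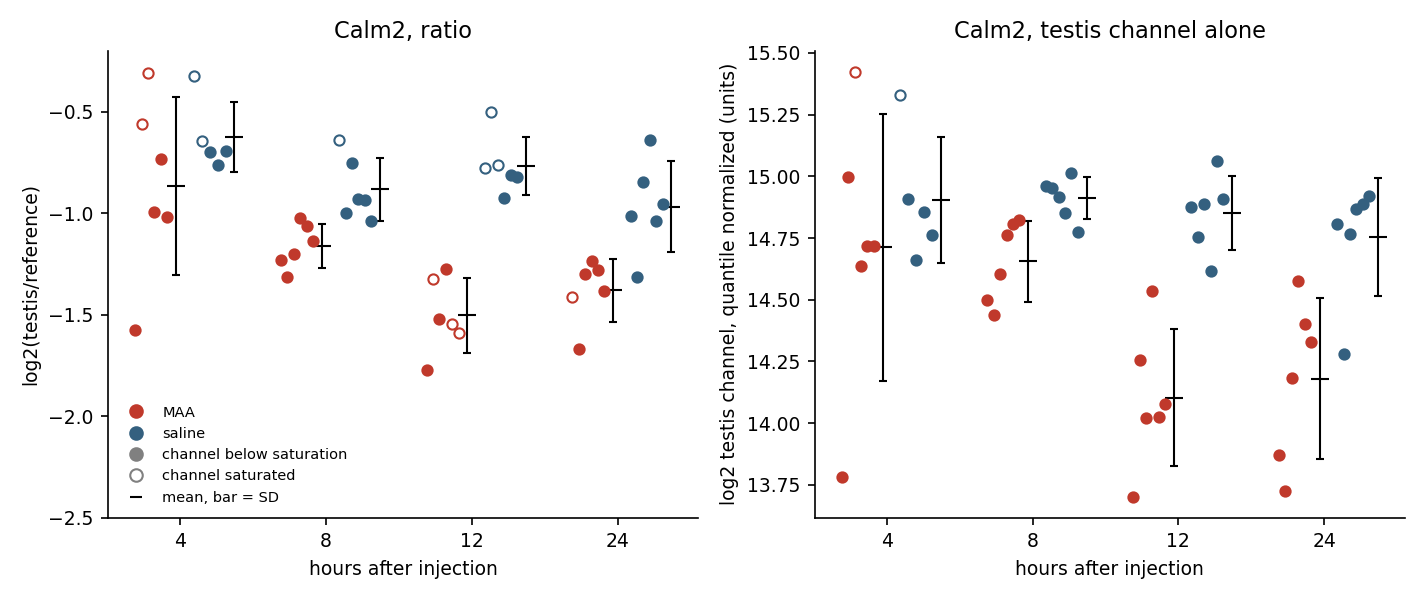
Calm2 in each animal by hours after injection, MAA (red) left of saline (blue), as log2(testis/reference) on the left and as log2 brightness of the testis channel alone on the right. Open points are arrays whose reference channel (left) or testis channel (right) was saturated, and bars are mean and SD. At 12 h the MAA animals lie between -1.77 and -1.27 and the saline animals between -0.93 and -0.50.

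At 24 h the same gene was lower by less on the ratio scale. Calm2 ran from -1.67 to -1.23 in MAA animals, with a median of -1.34, against -1.32 to -0.64 in saline animals, with a median of -0.98. The groups overlapped through saline animal 38, at -1.32. The change was -0.35 ± 0.11 (SE), 1.27-fold lower, with an adjusted p of 0.0922 (limma), and it did not pass. At 24 h 612 probes (2.99%) were called, 461 higher and 151 lower, and 0 of the 4 members by limma. At an unadjusted p under 0.05 there were 2939 of 20500 probes, with Calm2 and Camk1g among them. Groups did not overlap for 388 probes (1.89%), with 0 members among them.

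The call at 24 h depended on the scale. With the testis channel alone the Calm2 change was -0.53 (adjusted p 0.00588, limma), and with the authors' deposited ratio it was -0.53 (adjusted p 0.00835, limma). With median centring in place of loess it was -0.78 (adjusted p 0.022, limma). Within the 2 dates with both groups the differences of the loess ratio were -0.40 and -0.34, 2 and 2 arrays each.

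Earlier, Calm2 did not pass. At 8 h it ran from -1.32 to -1.03 after MAA (median -1.17) and from -1.04 to -0.64 after saline (median -0.93), and the groups overlapped only in that MAA animal 20 stood just above saline animal 22. The change was -0.24 ± 0.12 (SE, adjusted p 0.701, limma). At 4 h the MAA animals were at -1.57, -1.02, -0.996, -0.74, -0.56 and -0.31, and the saline animals at -0.76, -0.70, -0.69, -0.64 and -0.33. The value of -1.57 is MAA_4h animal 3, and the highest value of each group came from an array with both channels saturated. The change at 4 h was -0.15 ± 0.12 (SE, adjusted p 0.853, limma), and with median centring its sign turned to 0.17. At 4 h 4 probes (0.0195%) were called and at 8 h 2 (0.00976%), with 0 members among them. At an unadjusted p under 0.05 there were 1516 and 1458 probes, with 0 members at 4 h and Calm2 and Cacna1h at 8 h. Groups did not overlap for 136 probes (0.663%) at 4 h and 135 (0.659%) at 8 h, with 0 members.

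The plasma membrane pump gene went the other way at 12 h. Atp2b1 ran from -1.59 to -0.44 in MAA animals, with a median of -0.85, against -2.01 to -1.05 in saline animals, with a median of -1.53. The groups overlapped, and MAA animal 27 (-1.59), whose array carries the copied reference channel, was the lowest of its group. The means were -0.92 ± 0.39 after MAA and -1.49 ± 0.37 after saline (SD, n = 6 each). The fitted change was 0.65 ± 0.18 (SE), 1.57-fold higher, with an adjusted p of 0.0459 (limma). Without animal 27 it was 0.79 (adjusted p 0.00896, limma). Within the 2 dates that held both groups the differences were 0.77 and 0.69.

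That call was near the threshold. With the testis channel alone the Atp2b1 change at 12 h was 0.28 (adjusted p 0.588, limma). The reference channel, which holds the same RNA on every array, was lower by 0.31 ± 0.13 (SE) on the MAA arrays for this probe (unadjusted p 0.025, adjusted p 0.885, limma). The call held in 18 of 47 fits that left out 1 array. It was lost at 12 h without MAA animals 28, 31, 32, 35 or 36 or saline animals 25, 26, 30 or 49, and without any of 20 animals of other times, with adjusted p up to 0.178 (limma). The saline group of 12 h had the lowest Atp2b1 mean of the saline groups, -1.49 against -1.16 at 4 h, -0.999 at 8 h and -0.92 at 24 h.

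At the other times Atp2b1 did not pass. Its change was -0.18 ± 0.18 at 4 h, -0.13 ± 0.17 at 8 h and -0.12 ± 0.17 at 24 h (SE, adjusted p 0.895, 0.915 and 0.848, limma). At 4 h it ran from -1.90 to -0.64 after MAA (median -1.40), and the saline animals were at -1.86, -1.67, -1.03, -0.83 and -0.39, so that both groups spread over more than 1 unit. At 8 h the ranges were -1.35 to -0.87 after MAA (median -1.15) and -1.43 to -0.63 after saline (median -0.99). At 24 h they were -1.40 to -0.72 after MAA (median -0.95) and -1.46 to -0.66 after saline (median -0.84). The groups overlapped at each of these times.

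The T-type channel gene Cacna1h passed at no time. At 12 h it ran from -0.60 to 0.37 in MAA animals (median -0.11), against -0.59 to 0.88 in saline animals (median 0.27), and the groups overlapped. Its change was -0.48 ± 0.18 (SE) at 12 h (adjusted p 0.145, limma) and -0.44 ± 0.17 at 8 h (adjusted p 0.579, limma). At 8 h it ran from -0.41 to 0.53 after MAA (median -0.02) and from 0.14 to 0.46 after saline (median 0.23). Of the MAA values at 8 h, 3 lay below every saline value and 1 lay above.

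At the remaining times Cacna1h changed by 0.03 ± 0.17 at 4 h and -0.0018 ± 0.16 at 24 h (SE, adjusted p 0.987 and 0.997, limma), with 95% intervals of -0.31 to 0.38 and -0.34 to 0.33. At 4 h it ran from -0.26 to 0.33 after MAA (median 0.10), with saline animals at -0.34, -0.18, 0.10, 0.20 and 0.29. At 24 h it ran from -0.09 to 0.32 after MAA (median 0.02) and from -0.43 to 0.35 after saline (median 0.02). The groups overlapped at both times. The probe was above background on 1 to 4 arrays of each group.

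The kinase gene Camk1g passed at no time either. At 24 h it ran from -0.16 to 0.45 in MAA animals (median 0.03), against -0.59 to 0.08 in saline animals (median -0.17), with a change of 0.34 ± 0.15 (SE, adjusted p 0.252, limma). The MAA group reached higher, and the groups overlapped. With the testis channel alone the change was 0.35 (adjusted p 0.155, limma). At 12 h the ranges were -0.27 to 0.51 after MAA (median 0.24) and -0.04 to 0.39 after saline (median 0.13), with a change of 0.03 ± 0.16 (SE, adjusted p 0.957, limma).

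At 4 h Camk1g ran from -0.85 to 0.31 after MAA (median 0.10), with saline animals at -0.50, -0.21, -0.19, 0.06 and 0.07, and the change was 0.18 ± 0.15 (SE, adjusted p 0.854, limma). At 8 h it ran from -0.65 to 0.02 after MAA (median -0.19) and from -0.77 to -0.02 after saline (median -0.21), with a change of 0.11 ± 0.15 (SE, adjusted p 0.919, limma). At that time the probe was above background on 1 of 6 MAA arrays and 0 of 6 saline arrays, so no fold is given. In the saline animals Camk1g had means of -0.15, -0.32, 0.14 and -0.22 at 4, 8, 12 and 24 h. The F test between saline groups gave an unadjusted p of 0.000188 and an adjusted p of 0.474 (limma), and 1 probe (0.00488%) passed it over the whole array, which was none of the members. Unadjusted, Atp2b1 (0.0019) and Cacna1h (0.0184) also had a p under 0.05 in that test.

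**Figure D2:**
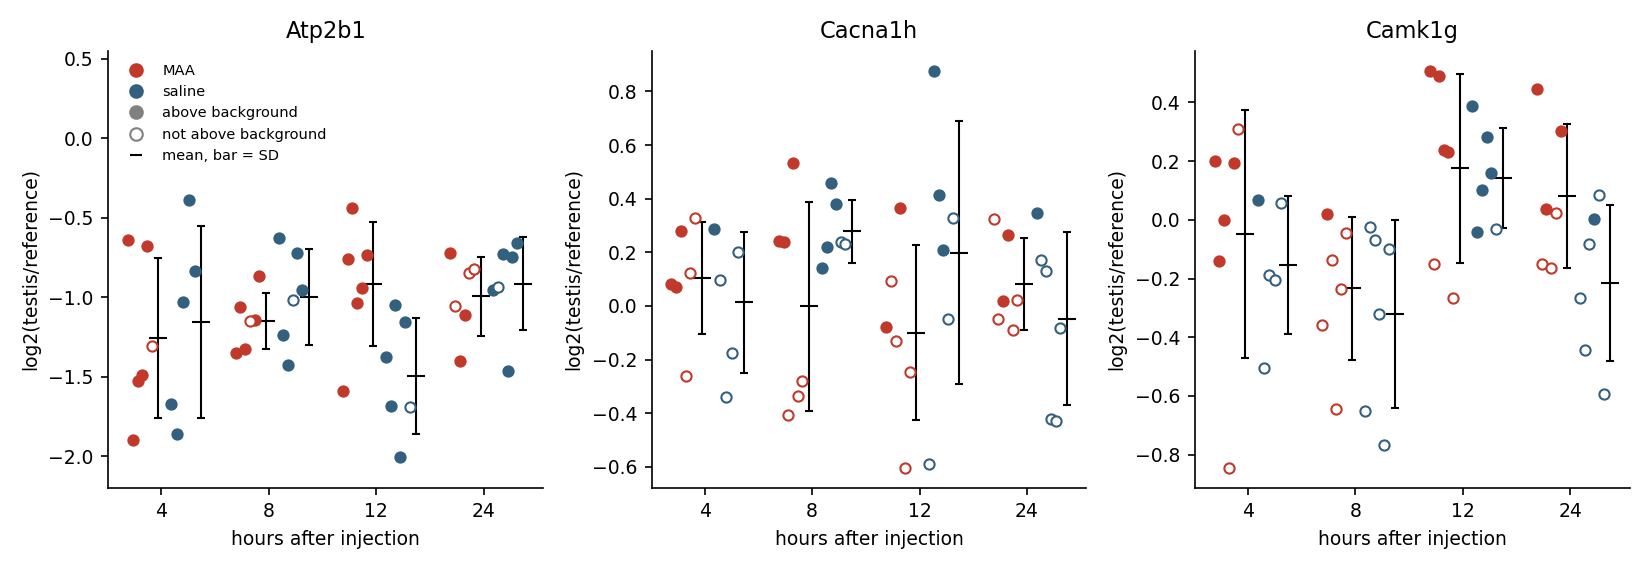
Atp2b1, Cacna1h and Camk1g in each animal as log2(testis/reference) by hours after injection, MAA (red) left of saline (blue). Open points are arrays on which the probe was not above background, and bars are mean and SD. MAA and saline animals overlap in each panel at each time, and at 12 h Atp2b1 averages -0.92 after MAA and -1.49 after saline.

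Set side by side, the members did not move as one. At 12 h 2 of the 4 changes were above 0 and 2 below, and at 8 and 24 h 1 was above and 3 below. Across 47 arrays, with date means removed, the pairwise correlations of the members ran from -0.28 (Calm2 with Camk1g) to 0.36 (Calm2 with Cacna1h), as a description over arrays that share groups. Whether an effect differed between times was tested with limma's F test, in which 26 probes (0.127%) passed and 0 of the 4 members, 2 of them at an unadjusted p under 0.05. Calm2 had an adjusted p of 0.252 (unadjusted 0.00637), and its change at 12 h differed from that at 4 h by -0.57 ± 0.16 (SE, adjusted p 0.128, limma). Atp2b1 had an adjusted p of 0.193 (unadjusted 0.00314), with 12 h above 4 h by 0.83 ± 0.24 (SE, adjusted p 0.129, limma). The 12 h values of these genes were thus not separated from the other times after correction. With median centring Calm2 passed the F test (adjusted p 0.0376, limma), and without both MAA_4h animal 3 and MAA_12h animal 27 Atp2b1 did (0.048).

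**Figure D3:**
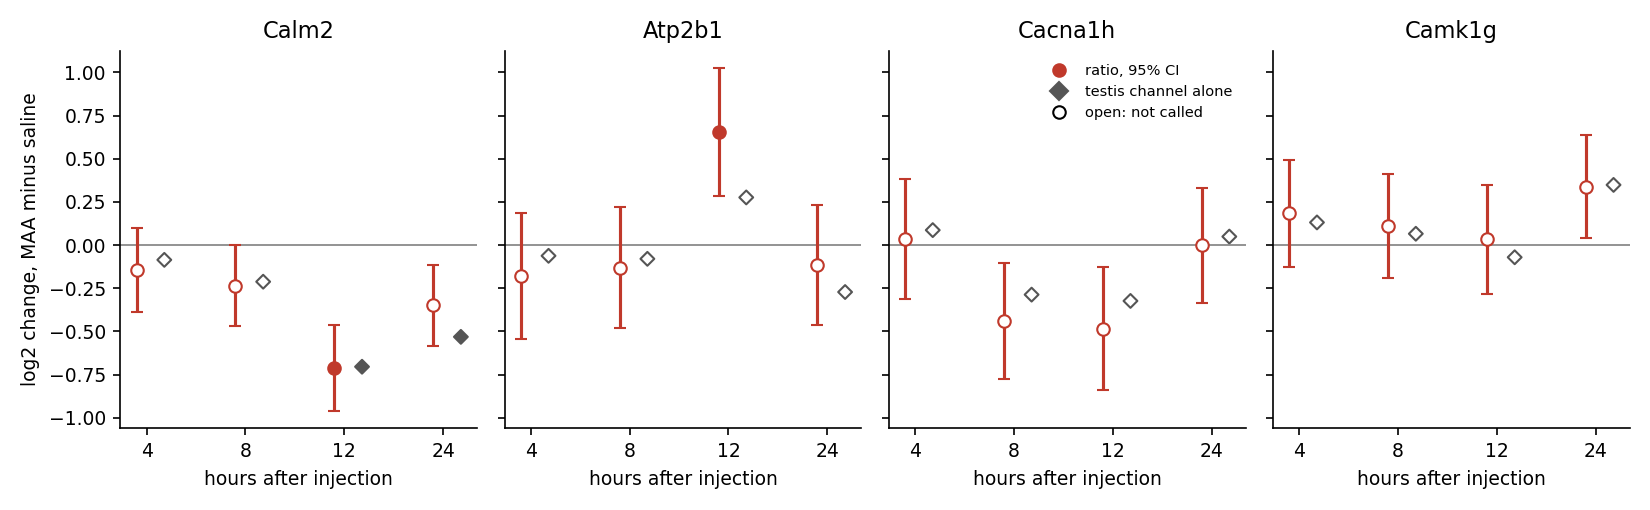
Change of each member as MAA minus saline by hours after injection, from the ratio (circles, bars are 95% intervals) and from the testis channel alone (diamonds). Filled symbols were called at an adjusted p under 0.05. Calm2 lies at -0.71 at 12 h on the ratio and at -0.70 on the testis channel, while Atp2b1 lies at 0.65 and 0.28.

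Genes with a course most like that of each member were found by correlation over 47 arrays after removal of date means, among 8057 probes with 1 symbol that were above background often enough. For Calm2 these were Pcgf6 (r = 0.86), a component of a Polycomb repressive complex, Atp5f1c (r = 0.85), the gamma subunit of mitochondrial ATP synthase, and Cklf (r = 0.85), a chemokine-like factor. Their differences at 12 h were -1.03, -0.83 and -1.58. These are a description, since the genes were chosen for their likeness to Calm2 over the same arrays. Atp5f1c shared with Calm2 a reference channel saturated on many arrays, 13 for Atp5f1c and 12 for Calm2. For Atp2b1 the closest were Enpep (0.60), Cideb (0.59) and Kat6a (0.59), and at 12 h none of the 3 was called, with changes of 0.41, 0.16 and 0.22. Cacna1h and Camk1g were above background on too few arrays for this comparison.

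Some markers of spermatocytes and of other testis cells moved at the same time as Calm2. Over all 9644 genes, with 1 probe per gene, 3.44% were called at 12 h and 4.31% at 24 h. Of 16 spermatocyte markers 6 were measured, all 6 above background on at least 50% of the arrays and none at 0. At 12 h 3 were lower, Sycp1 (-0.99), Sycp2 (-0.66) and Sycp3 (-0.63), which encode parts of the synaptonemal complex (adjusted p 0.000796, 0.0121 and 0.0301, limma). The other 3 were not called, with Mlh3 at -0.50, the linker histone H1f6 at -0.022 and the mismatch repair protein gene Msh5 at 0.15. The list's median change was -0.57 at 12 h and -0.30 at 24 h, where 1 was lower, Mlh3 (-0.68, adjusted p 0.0168, limma), a mismatch repair protein of meiotic crossing over. That call was lost without MAA animals 40 or 47 or saline animals 38 or 46 of 24 h. The log2 of their summed testis brightness was 14.2 to 15.11 in MAA animals at 12 h, against 14.94 to 15.52 in saline animals. At 24 h the sum was 14.31 to 15.09 after MAA and 14.93 to 15.63 after saline. The 14 elongating spermatid markers had sums of 18.99 to 19.14 after MAA and 18.88 to 19.03 after saline at 12 h, but 5 of the 14 were at the scanner's limit in the testis channel on at least 50% of the arrays, so the sum could show little change. Of the 14, 2 were higher at 12 h and 0 lower, Hils1 (0.51) and Spata18 (0.36), with adjusted p of 0.0255 and 0.0456 (limma). With the testis channel alone neither was called, with Hils1 at 0.11 and Spata18 at 0.20 (adjusted p 0.854 and 0.59, limma). Sycp3 was not called in 6 of the 47 fits that left out 1 array (saline animals 29, 30, 34 and 49 and MAA animals 31 and 36 of 12 h), and Sycp2 was not called without MAA animal 36. Hils1 was not called in 5 of these fits and Spata18 in 28.

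A few markers of other cells were higher at 12 h, when 3.44% of all 9644 genes were called. Of 13 Sertoli cell markers 1 was called, Inha, the inhibin alpha subunit (0.73, adjusted p 0.00278, limma). Of 6 peritubular myoid markers 2 were called, the smooth muscle actin Actg2 (0.65) and the myosin light chain Myl9 (0.48), with adjusted p of 0.00398 and 0.0158 (limma). Of 6 spermatogonial markers 1 was called, Uchl1, a ubiquitin hydrolase (0.78, adjusted p 0.0134, limma), which was at 0.46 with the testis channel alone (adjusted p 0.16). Of these lists 0 markers were lower, and in the lists of round spermatids (8 measured), Leydig cells (6) and macrophages and endothelium (11) limma called 0, with 6, 1 and 3 at an unadjusted p under 0.05. The 8 round spermatid changes went both ways, from -0.64 to 0.41, with 4 above 0. The summed log2 brightness was 14.94 to 15.48 after MAA and 14.59 to 14.95 after saline for Sertoli markers, and 14.29 to 14.67 after MAA and 13.87 to 14.16 after saline for myoid markers. For spermatogonial markers it was 12.28 to 12.75 after MAA and 12.21 to 12.42 after saline. Without MAA animal 36 of 12 h Myl9 was at 0.36 (adjusted p 0.181, limma) and Uchl1 at 0.68 (adjusted p 0.116), and Myl9 was also not called without MAA animal 31. The part of these cell types in the Calm2 change was not tested.

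**Figure D4:**
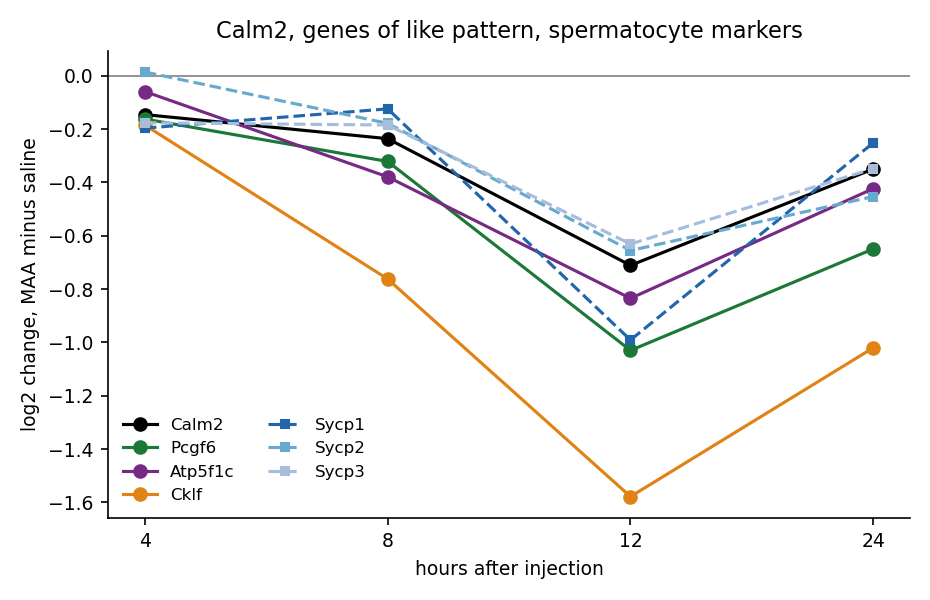
Change of Calm2, of the 3 genes of most like course and of the 3 of 6 spermatocyte markers called lower at 12 h (dashed), MAA minus saline on the log2 scale, by hours after injection. Each of the 7 genes has its lowest value at 12 h, from -1.58 for Cklf to -0.63 for Sycp3.

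Most other calcium genes showed no call. Of 211 genes in 8 lists by role, 129 besides the members were measured, and 83 of these were above background on at least 50% of the arrays. At 4 and 8 h limma called 0 of 129, with 12 and 5 at an unadjusted p under 0.05. At 12 h it called 2 (1.55%), both higher, and at 24 h 4 (3.1%), 3 higher and 1 lower. With median centring 0 of the 129 were called at 12 and 24 h, with 7 and 5 at an unadjusted p under 0.05. With 1 probe per gene, 3.44% and 4.31% of all 9644 genes were called at 12 and 24 h. The median change of the 129 genes was -0.04, 0.01, 0.06 and 0.04 at 4, 8, 12 and 24 h, beside 0.0044, 0.01, 0.05 and 0.04 over all genes. Its sign turned with median centring at 4, 8 and 24 h (0.05, -0.04 and -0.03), and with the testis channel alone at 8 and 12 h (-0.0087 and -0.00031). The median over all probes moved as well, to 0.045, -0.017 and -0.0082 with median centring at 4, 8 and 24 h. On the testis channel alone it was 0.0018 and 0.0032 at 8 and 12 h.

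Among channels, 18 other voltage-gated subunits were measured and 0 were called by limma, with 2 at an unadjusted p under 0.05 at 4 h, 2 at 8 h and 0 later. Cacna1d, the pore subunit of an L-type channel, changed by -0.40 ± 0.24 at 12 h (SE, adjusted p 0.482, limma), and the auxiliary subunit Cacng7 by -0.38 ± 0.22 at 24 h (adjusted p 0.479, limma), when it was above background on 0 of 6 MAA and 2 of 6 saline arrays. Of 10 sperm and store-operated entry channels 1 was called, Pkd2, the cation channel polycystin 2, lower at 24 h (adjusted p 0.0465, limma). It was above background on 0 of 6 MAA arrays and 3 of 6 saline arrays, so no fold is given, its other probe was at 0.11, and the call was lost in 25 of 47 fits that left out 1 array. Trpc1, a cation channel subunit, had its smallest adjusted p at 4 h, with a change of 0.59 ± 0.20 (SE, adjusted p 0.473, limma).

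Among pumps, exchangers and release channels no gene passed besides Atp2b1. The 14 other pumps and exchangers had a median change of 0.10 at 12 h. Slc24a1, a sodium, calcium and potassium exchanger, was at 0.34 ± 0.12 (SE, adjusted p 0.126, limma) and Atp2c1, the Golgi calcium and manganese pump, at 0.36 ± 0.17 (adjusted p 0.293, limma). The 9 genes of store release and mitochondrial uptake had a median of 0.06 at 12 h. There Itprid2, named for a domain that interacts with inositol trisphosphate receptors, was at 0.54 ± 0.19 (adjusted p 0.129, limma) and the receptor Itpr3 at 0.17 ± 0.11 (adjusted p 0.486, limma).

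Calcium-binding proteins held 4 of the 6 calls, with Nucb2 counted at both 12 and 24 h. Of the buffers, 1 (5.56%) was called at 12 h and 2 (11.1%) at 24 h. Of the other sensors, 0 were called at 12 h and 1 (5%) at 24 h. Over all genes the shares were 3.44% at 12 h and 4.31% at 24 h, so these lists differ from them by very few genes. With the deposited ratio Ocm was the only one of the 129 genes called. Of 18 buffers, Nucb2, an EF-hand protein of the secretory pathway, rose at 12 h by 0.46 ± 0.10 (SE, 1.37-fold, adjusted p 0.0114, limma) and at 24 h by 0.38 (adjusted p 0.0201, limma). With the testis channel alone the 12 h change was 0.39 (adjusted p 0.0633, limma) and did not pass, and the ratio was called at 12 h in 7 of 14 alternatives. At 24 h it was 0.40 on that channel (adjusted p 0.0216, limma), but 0.041 with median centring. At 12 h it ran from 0.17 to 0.47 after MAA (median 0.31) and from -0.27 to 0.11 after saline (median -0.16), with no overlap. Ocm, oncomodulin of the parvalbumin family, rose at 24 h by 0.82 ± 0.18 (SE, 1.76-fold, adjusted p 0.00723, limma), from values of -0.92 to -0.24 after MAA (median -0.59) and -1.66 to -0.87 after saline (median -1.24), which overlapped slightly. With the testis channel alone Ocm changed by 0.87 (adjusted p 3.34e-05, limma). Of 20 other sensors, Cabyr, a calcium-binding protein of the sperm fibrous sheath, rose at 24 h by 0.47 ± 0.13 (SE, adjusted p 0.0394, limma), with its other probe at 0.42 (adjusted p 0.0487). Its change was 0.07 with the testis channel alone. The call was lost without MAA animals 39, 40, 43, 47 or 48 or saline animals 38, 41, 45 or 46 of 24 h. Kcnip3, an EF-hand protein that binds potassium channels, was at 0.36 ± 0.17 at 24 h (adjusted p 0.316, limma).

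Among the proteins that calmodulin acts on, 0 of 15 other calmodulin-dependent kinases were called by limma, with 2 at an unadjusted p under 0.05 at 12 h and 1 at 24 h. Phkg2, a catalytic subunit of phosphorylase kinase, was at 0.29 ± 0.09 at 12 h (SE, adjusted p 0.0994, limma) and Mylk2, a myosin light chain kinase, at 0.22 ± 0.10 at 24 h (adjusted p 0.300, limma). Of 25 calcineurin genes and other targets 1 was called, Strn3, a calmodulin-binding scaffold of protein phosphatase 2A, which rose at 12 h by 0.46 ± 0.11 (SE, adjusted p 0.0199, limma). It ran from -0.46 to -0.11 after MAA (median -0.26) and from -0.85 to -0.46 after saline (median -0.71). It showed no overlap, but the lowest MAA value (-0.4622) nearly met the highest saline value (-0.4632). Its 3 other probes gave 0.07, -0.29 and 0.17 and were not called, so the probes of this gene disagreed, and with the testis channel alone its change was 0.24 (adjusted p 0.367, limma). The call was lost without saline animal 25 or MAA animals 28 or 36 of 12 h, and that of Nucb2 at 12 h without MAA animal 36 and at 24 h without MAA animal 48 or saline animals 38 or 45. Ppp3r1, a regulatory subunit of calcineurin, was at 0.26 ± 0.12 at 24 h (adjusted p 0.281, limma).

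**Figure D5:**
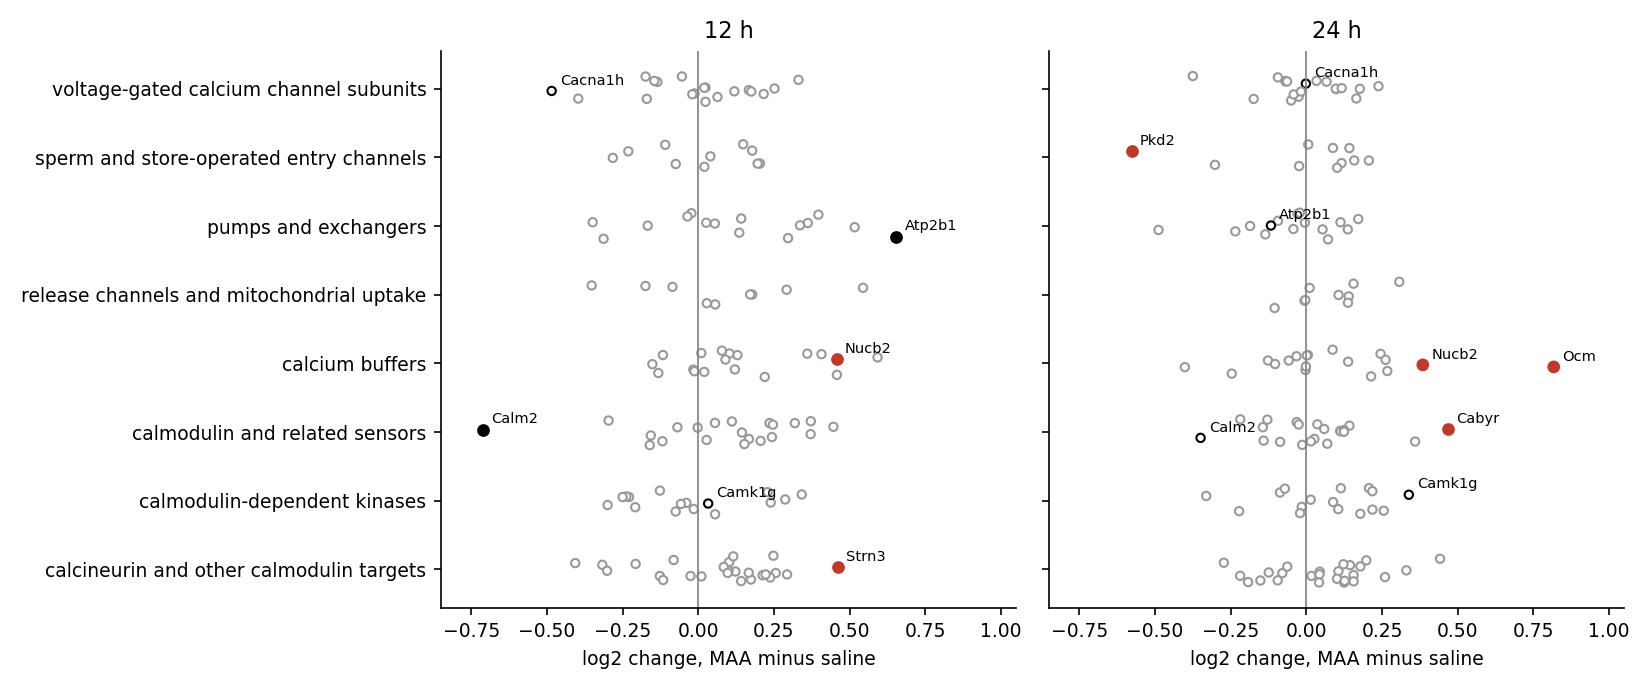
Change of every measured calcium gene by role at 12 h (left) and 24 h (right), MAA minus saline on the log2 scale, 1 point per gene. Filled points were called at an adjusted p under 0.05, and the 4 members are in black. Calm2 (-0.71) and Atp2b1 (0.65) lie at the 2 ends of the range at 12 h.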

How the data were processed

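Testis RNA of 47 rats was measured on 47 2-colour arrays in 8 groups, 1 array per animal. The authors deposited raw channel intensities of 22573 spots per array, as the scanner gave them and without a background column, per the file headers. The authors also deposited normalized intensities, a normalized log2 ratio (Cy3 over Cy5), a background flag and, for 2073 spots, no processed value, per the file headers. How these were scanned and normalized is not given in the sources used here. In the deposited series table, the columns of 39 of 47 arrays equal the ratio of another array, 7 their own and 1 none (tolerance 1e-06), so it served only as an alternative.

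Loess within arrays was applied to the raw intensities of the 20500 kept probes. No background was subtracted, since the files hold none. The fit used limma 3.58.1 (R 4.3.3, lmFit and eBayes) with 8 groups and 12 hybridisation dates as terms (28 residual and 6.75 prior degrees of freedom). On 8 dates both MAA and saline animals were hybridised, on 2 MAA animals only and on 2 saline animals only. On dates with a single treatment, MAA and saline could not be compared within the date. P-values were adjusted by Benjamini-Hochberg over all probes and are two-sided. For lists, the probe brightest in the testis channel stands for its gene. Symbols came from the platform annotation and RefSeq's gene table, giving 12736 probes 1 symbol, 5 several and 7759 none. Genes were named by rule: the members, calcium genes called or with 1 of the 2 smallest adjusted p of their list, and the 3 genes most correlated with a member. Cell type markers were named beside them, when called at 12 h or of spermatocytes. The members and lists were chosen with earlier results of these data known. The fit was tested on simulated data. Alternatives changed the normalization, the channel, the date term, the filters, the source table and the arrays used.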

Additional observations from a re-analysis of the deposited data

Results flagged for a closer look

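Among 32 groups of the 4 members tested for a value far from its group (5 or 6 animals each), 2 held one, and chance gives about 1 in 20 groups. Calm2 in saline_4h animal 2 stood at -0.33 (-0.32527), against -0.76 to -0.64 in the other 4 animals, on an array with both Calm2 channels saturated. Atp2b1 in saline_24h animal 42 stood at -1.46 (-1.46385), against -0.95 to -0.66 in the other 5 animals of its group.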

How the results depend on the processing

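Calm2 at 12 h kept its direction and call in 10 of 13 alternatives, from -1.03 with median centring to -0.70 with an offset of 50 among these. It was -0.78 (adjusted p 0.170, limma) with only the 2 groups compared and -0.52 (0.801) without the arrays on which its spot was saturated, a choice made after seeing the data, as was leaving out both MAA_4h animal 3 and MAA_12h animal 27. Both choices leave fewer arrays. Atp2b1 at 12 h was called in 5 of 14 alternatives. In each count of alternatives, here and for Nucb2 above, 1 setting (Aquantile between arrays) could not differ. It rescales only the mean brightness of the 2 channels, leaves the ratios as they were and so repeats the main fit. At 4 and 8 h 0 members were called in any of 14 alternatives. The members called at 12 h numbered 1, Calm2, with median centring, the testis channel by itself, the deposited ratio or the processed channels. The same held with no date term or date as a random block. With probes saturated on no array, the 1 called was Atp2b1 (adjusted p 0.0476, limma), because that filter removed the Calm2 probe. The members called at 12 h numbered 0 with the series table as labelled, only the 2 groups compared, or without arrays with Calm2 saturated. At 24 h 1 member was called with median centring, the testis channel alone, the deposited ratio, the processed channels or probes above background on at least 50% of arrays. In the F test between times 1 member passed with median centring and 1 without both named arrays. Apart from the saturation filter, which removed the Calm2 probe, why these settings differ was not tested. The cause was not tested for the 24 h values of Calm2.

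With the series table as labelled, in which most columns hold another array, 0 probes were called at each time and these log2 changes turned sign. The members gave 0.092, 0.58 and 0.24 for Calm2 at 4, 8 and 12 h, 0.13, -0.067 and 0.27 for Atp2b1 at 8, 12 and 24 h, 0.056 and 0.21 for Cacna1h at 8 and 12 h, and -0.11, -0.29, -0.16 and -0.30 for Camk1g at 4, 8, 12 and 24 h. At 12 h Atp5f1c gave 0.23, Cklf 0.30, Pcgf6 0.55, Cideb -0.091, Cacna1d 0.16, Itpr3 -0.18, Itprid2 -0.30, Nucb2 -0.23, Phkg2 -0.18, Slc24a1 -0.039, Strn3 -0.21, Sycp1 0.11, Sycp2 0.30, Sycp3 0.28, Mlh3 0.41, Msh5 -0.23, H1f6 0.28, Inha -0.0073, Actg2 -0.23, Myl9 -0.31, Hils1 -0.11 and Spata18 -0.14. Trpc1 gave -0.21 at 4 h, Kcnip3 -0.092, Ppp3r1 -0.16 and Mlh3 0.063 at 24 h. Cacna1h at 24 h (-0.0018) turned to 0.039 with median centring, 0.049 on the testis channel, 0.0036 with the deposited ratio, 0.00084 with the processed channels, 0.13 with no date term, 0.11 with date as a random block, 0.029 with only the 2 groups compared, 0.12 without arrays with Calm2 saturated and 0.018 without both named arrays. Median centring also turned Cacna1h at 4 h (-0.12), Calm2 at 4 h (0.17), Itpr3 (-0.022), Msh5 (-0.17) and H1f6 (0.12) at 12 h and Mylk2 at 24 h (-0.23). The testis channel alone turned Camk1g (-0.071), Cideb (-0.011), Kat6a (-0.011) and Msh5 (-0.11) at 12 h and Mylk2 at 24 h (-0.081). Camk1g at 12 h was -0.048 with only the 2 groups compared, where H1f6 was 0.054. Without arrays with Calm2 saturated, Kat6a was -0.075, Msh5 -0.30 and Mlh3 0.16 at 12 h, and H1f6 was 0.0080 with the processed channels.

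Probes called at 4 h numbered 14 with median centring, 17 on the testis channel, 7 with the processed channels, 10 with date as a random block, 13 above background on at least 50% of arrays, and 0 with only the 2 groups or without arrays with Calm2 saturated. At 8 h they numbered 1 with median centring, 32 on the testis channel, 5 with the deposited ratio, 6 with the processed channels, 13 with no date term, 18 with date as a random block, 10 above background, 0 with only the 2 groups, 1 without arrays with Calm2 saturated and 8 without both named arrays. At 12 h they numbered 153 with median centring, 883 above background, and 0 with only the 2 groups or without arrays with Calm2 saturated. At 24 h they numbered 193 with median centring, 1075 on the testis channel, 378 with the deposited ratio, 354 with the processed channels, 977 above background, 16 with only the 2 groups and 238 without arrays with Calm2 saturated.

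Leaving out each array in turn gave 3 to 6 calls at 4 h, 2 to 9 at 8 h, 226 to 614 at 12 h (lowest without MAA_12h animal 36) and 305 to 777 at 24 h (lowest without MAA_24h animal 40), and 1 to 2 members called at 12 h. Cacna1h ran from -0.054 to 0.099 at 4 h and from -0.12 to 0.12 at 24 h, Camk1g from -0.015 to 0.18 at 8 h and from -0.091 to 0.16 at 12 h, Kat6a from -0.021 to 0.36 and H1f6 from -0.16 to 0.10 at 12 h. No paired analysis was possible because animal numbers do not recur between groups. Brightness near background limits Cacna1h and Camk1g, and saturation limits Calm2.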
